A study of Mus musculus with 54 samples.

Results

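The line that carries the construct CIR-1 was compared with its parental line, Ba/F3-gp130. Ba/F3 cells derive from early mouse B-lineage (pro-B) cells, and the gp130 form carries the signal chain shared by the receptors of the interleukin-6 family, which lets it grow on Hyper-IL-6 (interleukin-6 joined to its soluble receptor). CIR stands for Cargo Internalization Receptor, and the study's design text names a check of how far the constructs act on the cells without side effects as the purpose of the arrays. By title and transfection label, 6 CIR-1 arrays and 6 parental arrays at gene level entered the comparison, 12 of the 27 gene-level arrays of the series. In each line 3 arrays held unstimulated cells (numbered 1, 3 and 5) and 3 held cells given GFP-PFC (numbered 2, 4 and 6), an emulsion added at 50 µl per ml for 1 h. All 12 samples came from cells kept in DMEM with 10 ng/ml Hyper-IL-6, washed 4 times and held in serum-free medium for 3 h, so the controls had the same cytokine withdrawal as the CIR-1 cells. The parental line was untransfected as regards a CIR construct, although it carries the gp130 chain. The labels name no line with an empty vector and no arm given liquid without emulsion, and they do not give the promoter of the construct, whether CIR-1 is 1 clone, or whether the replicate arrays were separate cultures, so p-values measure the spread between these arrays, which may be technical. The effect of the construct and of the steps that made the line cannot be told apart. The lines CIR-2 and CIR-3, with 6 arrays each in the same layout, serve for comparison. Their arrays also enter the fit, so they help set the spread behind each p-value.

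Pro-B cells are early B-lineage progenitors marked by the transcription factor Pax5 and the surrogate light chain genes Vpreb1 and Igll1. Cell lines grown on cytokines for long periods can express genes of other blood lineages as well, such as Fcer1a, whose product is the IgE-binding alpha chain of the receptor Fc epsilon RI on mast cells and basophils, or Gata1, a transcription factor of red cell, platelet and mast cell precursors.

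The deposited gene-level values were taken as log2 signal, and a difference of 1 is a doubling on that reading. The medians of the 12 arrays lay between 7.56 and 7.65. A mark at 6.28, the median of the arrays' lower quartiles, served as a rough sign of background, since no detection calls were used, and a gene below it is not shown to be above background. Of the 11 pro-B markers measured, 8 had a mean above this mark (Cd79a, Cd79b, Pax5, Vpreb1, Igll1, Rag1, Ptprc and Blnk), while Ebf1, Il7r and Cd24a, all common in pro-B cells, lay below it. The summed linear signal of these 11 genes was 7279 to 8002 in parental arrays and 7012 to 8319 in CIR-1 arrays, and the ranges overlapped. Such a sum is weighted to the brightest genes, so the overlap does not speak for each marker. The expression correlation between a CIR-1 and a parental array was 0.991 to 0.997 across genes, against 0.993 to 0.998 between arrays of a group.

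Of 19920 genes tested, 2049 passed an adjusted p of 0.05 for the mean of the line differences in both conditions (limma, Benjamini-Hochberg), 10.3% of all genes. Of these, 1185 were higher in CIR-1 (5.95% of genes) and 864 were lower (4.34%). Most of the changes were small. The median size among the called genes was 0.22 and 1828 of the 2049 lay under 0.5, while 27 genes were higher and 27 were lower by at least 1. Without the array number as a block, 916 genes were called, 557 higher and 359 lower. In 753 genes (3.78%) all 6 CIR-1 arrays lay on the same side of all 6 parental arrays.

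By fitted difference Fcer1a and the C-type lectin Clec12a led the falls, but both had CIR-1 means below the background mark, so their falls are known only as bounds and their order is not established. The C-type lectins Clec4e and Clec5a, the chemokine receptor Ccr1 and the granule enzyme Mpo were also among the 14 greatest falls. The greatest rise by fitted difference was that of Slc14a1, and the 14 greatest rises included Lgals3, Aldh1a1, Lcn2, F5 and F10. Of those 14, 3830403N18Rik, Ctsj, Gm4907 and Cyct had parental means below the mark, so their rises are bounds and the order is not established. Fcer1a, the IgE receptor alpha chain, read 9.98, 8.15 and 9.15 in the unstimulated parental arrays and 9.74, 8.87 and 9.52 in the parental arrays given GFP-PFC. In CIR-1 it read 5.20, 4.75 and 5.03 unstimulated and 5.20, 5.34 and 4.92 after GFP-PFC. All 6 CIR-1 values lay below the background mark and all 6 parental values well above it. The parental mean was at least 7.74-fold higher, with each CIR-1 value below the mark raised to it, and the fitted difference was -4.16 (SE 0.18, adjusted p = 4.21e-11).

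**Figure D1:**
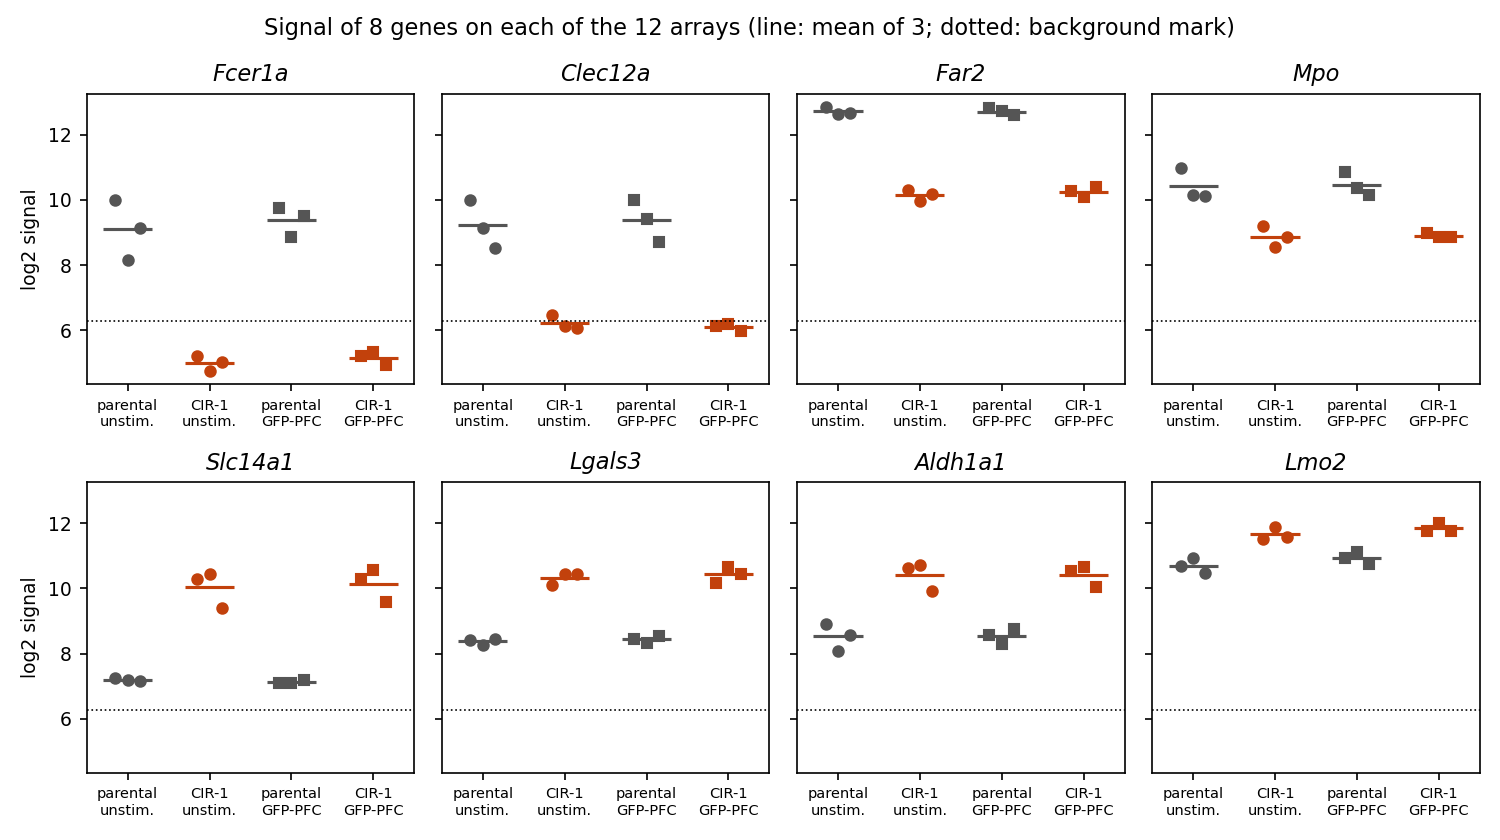
Signal (log2, vertical axis) of 8 genes on each of the 12 arrays, with circles for unstimulated arrays, squares for GFP-PFC, grey for parental and orange for CIR-1, a bar at each mean of 3 and a dotted line at the background mark of 6.28. Fcer1a lies below the mark in all 6 CIR-1 arrays, Clec12a in 5 of them, and in each of the 8 genes the lines do not overlap.

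Clec12a, an inhibitory C-type lectin of myeloid cells, read 10.00, 9.12 and 8.52 in unstimulated parental cells and 9.99, 9.42 and 8.71 after GFP-PFC. The CIR-1 values were 6.47, 6.14 and 6.06, then 6.12, 6.18 and 5.97. The parental arrays were the more spread, and 5 of 6 CIR-1 arrays lay below the background mark. With these raised to the mark the parental mean was at least 7.89-fold higher, and the fitted difference was -3.13 (SE 0.21, adjusted p = 1.99e-08). Atp8b4, a membrane ATPase of the lipid flippase class, lay between 8.91 and 9.89 in parental arrays and between 6.13 and 6.97 in CIR-1 arrays, a difference of -2.87 (SE 0.10), with 2 of the 6 CIR-1 values under the mark. Gask1b, which codes for a Golgi-associated kinase-like protein, fell by 2.62 (SE 0.07), with no overlap between lines.

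Far2, a fatty acyl-CoA reductase that makes fatty alcohols, was bright in both lines and fell from 12.85, 12.64 and 12.65 to 10.29, 9.96 and 10.19 unstimulated, and from 12.81, 12.71 and 12.60 to 10.26, 10.08 and 10.40 with GFP-PFC. Replicates differed by under 0.5 within each group, and Far2 fell by 2.51 (SE 0.07, adjusted p = 2.43e-13), or 5.71-fold. Scin, an actin-severing protein, fell by 1.75 (SE 0.14) from 12.61 to 12.94 in parental arrays to 10.55 to 11.33 in CIR-1 arrays. Dock10 fell by 1.91 (SE 0.11), and C1ra, a complement protease, by 1.90 (SE 0.12). Depdc7 fell by 1.72 (SE 0.06), although its levels in arrays 1 and 2 were higher than in the others in each line (11.46 and 11.35 in parental, 9.86 and 9.54 in CIR-1), so that this gene shows how far values moved with the array number. Mettl7b, which codes for a methyltransferase-like protein, fell by 1.76 (SE 0.12). Ccr1, a chemokine receptor, was below the background mark on all 6 CIR-1 arrays (5.27 to 5.70) and on 1 of 6 parental arrays (6.04 to 7.73), and its parental mean was at least 1.78-fold above the mark.

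Among the rises, that of Slc14a1, the urea transporter of red cells, was the highest by fitted difference. Its unstimulated values were 7.25, 7.19 and 7.17 in parental and 10.27, 10.42 and 9.40 in CIR-1, and with GFP-PFC they were 7.10, 7.09 and 7.18 against 10.28, 10.57 and 9.57. The parental values were tight and the CIR-1 arrays numbered 5 and 6 were the lowest of that line. The rise was 2.92 (SE 0.13, adjusted p = 6.22e-11), or 7.58-fold. The predicted gene 3830403N18Rik lay below the background mark on all 6 parental arrays (5.18 to 5.63) and between 7.27 and 8.14 in CIR-1, at least 2.70-fold higher than the mark.

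Lgals3, which codes for the sugar-binding protein galectin-3, rose from 8.41, 8.27 and 8.46 to 10.12, 10.43 and 10.43 unstimulated and from 8.43, 8.33 and 8.53 to 10.16, 10.66 and 10.45 with GFP-PFC. The lines were far apart relative to their spread, with a difference of 1.97 (SE 0.07, adjusted p = 3.37e-12). Aldh1a1, a retinaldehyde dehydrogenase, rose from 8.92, 8.08 and 8.57 to 10.61, 10.70 and 9.90, and after GFP-PFC from 8.57, 8.29 and 8.76 to 10.54, 10.65 and 10.03. Its rise was 1.88 (SE 0.15, adjusted p = 1.73e-07).

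F5, coagulation factor V, lay between 6.25 and 6.73 in parental arrays and between 8.01 and 8.69 in CIR-1 arrays, a rise of 1.80 (SE 0.13). F10, coagulation factor X, rose by 1.35 (SE 0.05) from 9.53 to 9.67 in parental to 10.83 to 11.10 in CIR-1. Tgm2, a transglutaminase that crosslinks proteins, rose by 1.77 (SE 0.07) from 8.84 to 9.21 to a range of 10.42 to 11.24. Lcn2, the iron-siderophore carrier lipocalin 2 of neutrophil granules, rose by 1.79 (SE 0.16) from 9.78 to 10.74 in parental to 11.81 to 12.52 in CIR-1. Hipk2, a nuclear protein kinase, rose by 1.43 (SE 0.08). M1ap, a meiosis-associated gene, rose by 1.79 (SE 0.13). Ctsj, a placental cathepsin, had 3 of 6 parental values and the parental mean below the background mark, and its CIR-1 mean was at least 3.48-fold higher (fitted difference 1.89, SE 0.14). Cyct, the testis form of cytochrome c, lay below the background mark on all 6 parental arrays and on 1 of the 6 CIR-1 arrays, and its CIR-1 mean was at least 1.14-fold above the mark (fitted difference 1.33, SE 0.07). Rnase12, of the RNase A family, rose by 1.74 (SE 0.07). The predicted gene Gm4907 lay below the mark on 4 of 6 parental arrays, and its CIR-1 mean was at least 3.27-fold higher (fitted difference 1.86, SE 0.09). The values of the lines did not overlap in either condition for any of these 28 genes with the greatest rises and falls, which is part of the rule that chose them.

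The line difference was set side by side in the 2 conditions, which share no array. In unstimulated cells 907 genes passed (4.55% of genes), 566 higher (2.84%) and 341 lower (1.71%), and after GFP-PFC 846 passed (4.25%), 540 higher (2.71%) and 306 lower (1.54%). Without the block of array numbers these counts were 318 and 289. Of the 907, 901 had the same sign after GFP-PFC, and of the 846, 832 had the same sign unstimulated. The genes called in both with 1 sign numbered 630, which is 69.5% of the first list and 74.5% of the second. Across all genes the differences in the 2 conditions correlated with r = 0.793, and genes are not independent replicates. Among genes not called in the mean, r was 0.305. The labels do not say whether neighbouring array numbers were handled together, so the 2 conditions may not be independent of each other. Of the 54 genes that differed by 1 or more in the mean, 52 were called in each condition.

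**Figure D2:**
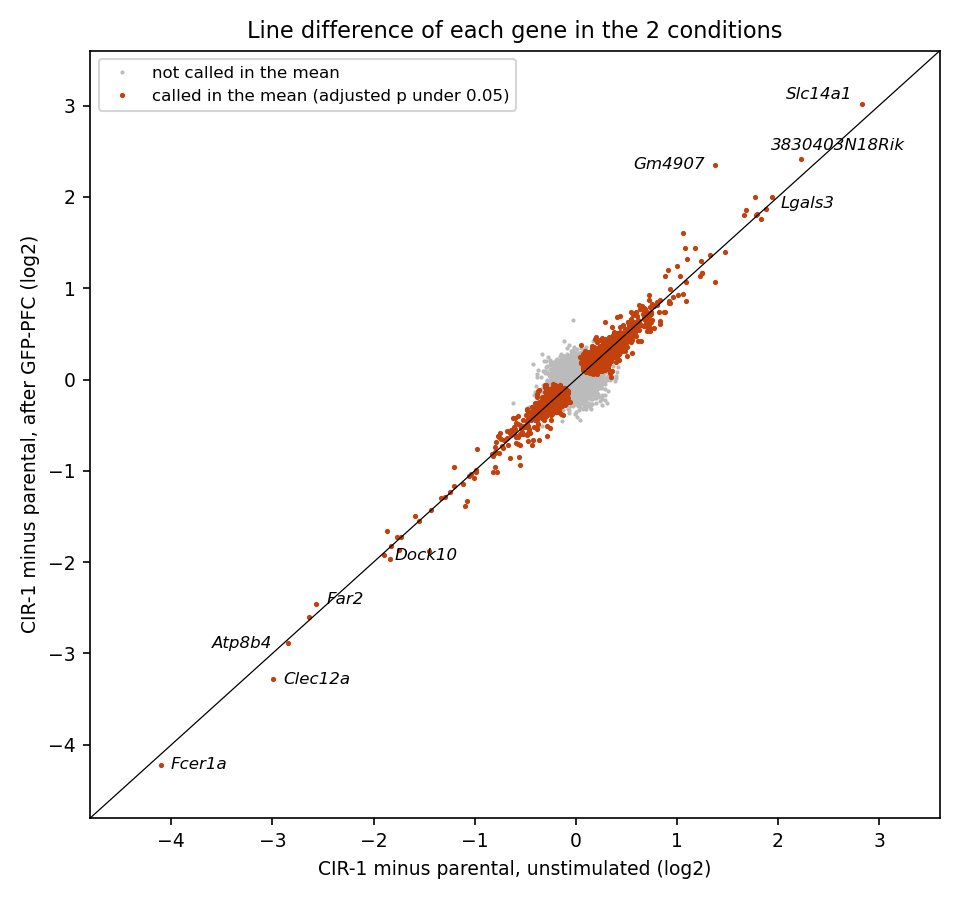
Difference of CIR-1 minus parental (log2) of each of 19920 genes in unstimulated cells (horizontal axis) and after GFP-PFC (vertical axis), orange where the mean of both was called, with the line of equal values. Slc14a1 and Lgals3 at the top and Far2 at the bottom lie near the line of equal differences, and Fcer1a and Clec12a, also at the bottom, rest on CIR-1 means below the background mark.

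No gene passed for a change of the line difference with GFP-PFC (limma interaction, smallest adjusted p = 0.518). Of the 19920 genes, 468 had an unadjusted p under 0.05, a smaller share than the 0.05 that chance alone would give on average. A p above the threshold does not show that the differences were equal. The 4 genes with the smallest interaction p were Gm4907, Acot3, Trav12-2 and 2200002J24Rik. Gm4907 read 6.19, 6.29 and 6.58 in unstimulated parental cells and 5.67, 6.19 and 6.16 after GFP-PFC, against 7.72, 7.84 and 7.62 and then 8.42, 8.31 and 8.36 in CIR-1. Its fitted line difference was 1.37 unstimulated and 2.35 after GFP-PFC, but all 3 parental values after GFP-PFC and 1 of the 3 unstimulated lay below the background mark, so the sizes are not fixed. Acot3, an acyl-CoA thioesterase, differed by 0.31 unstimulated and -0.26 after GFP-PFC, close to the background mark throughout (5.92 to 6.54).

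Of 14 measured genes of red cell and platelet precursors, 9 rose and 5 did not pass. GATA1, its cofactor FOG1 (Zfpm1) and the bridge protein LMO2 form complexes that switch on the genes of these lineages, KLF1 and NFE2 act beside them, and GFI1B is a repressor they need. The list held 0 falls, and its median difference was 0.40 against 7e-04 over all genes. The matching figure over all genes is 5.95% higher. The list was written with earlier results of these data known, so its count is not independent evidence. Without the block 8 of 14 passed, and 8 passed without the arrays numbered 1 and 2 as well.

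Lmo2 showed the greatest of these rises. It read 10.68, 10.94 and 10.48 in unstimulated parental and 11.52, 11.89 and 11.56 in CIR-1, then 10.92, 11.13 and 10.75 against 11.75, 12.01 and 11.75 with GFP-PFC. Each of the 6 same-numbered differences lay between 0.83 and 1.08, and the mean was 0.93 (SE 0.06, adjusted p = 1.2e-08). Zfpm1 rose by 0.64 (SE 0.04), Gfi1b by 0.64 (SE 0.05) and Nfe2 by 0.43 (SE 0.04). Gata1 read 10.79, 10.65 and 10.65 in unstimulated parental, 11.07, 11.15 and 11.16 in CIR-1, 10.70, 10.71 and 10.59 in parental with GFP-PFC and 10.97, 11.18 and 11.21 in CIR-1 with GFP-PFC. The lines did not overlap, and Gata1 rose by 0.44 (SE 0.05, adjusted p = 4.37e-06).

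Further genes of the list rose as well. Klf1 rose by 0.63 (SE 0.06), Epor, the erythropoietin receptor, by 0.42 (SE 0.04), Itga2b, the platelet integrin alpha IIb, by 0.37 (SE 0.04) and Gp9, a subunit of the platelet receptor for von Willebrand factor, by 0.23 (SE 0.06). The 5 that did not pass were Tal1 (0.11), Alas2 (0.03), Vwf (0.01), Pf4 (-0.07) and Ank1 (-0.12). Alas2 codes for the first enzyme of heme synthesis in red cells and Pf4 for a platelet granule chemokine. Of the 6 defining markers measured, 5 lay above the background mark and Pf4 lay below it. Their summed linear signal was 4068 to 4375 in parental and 5439 to 5753 in CIR-1 arrays. In such bulk samples more cells of a type and more RNA per cell cannot be told apart.

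**Figure D3:**
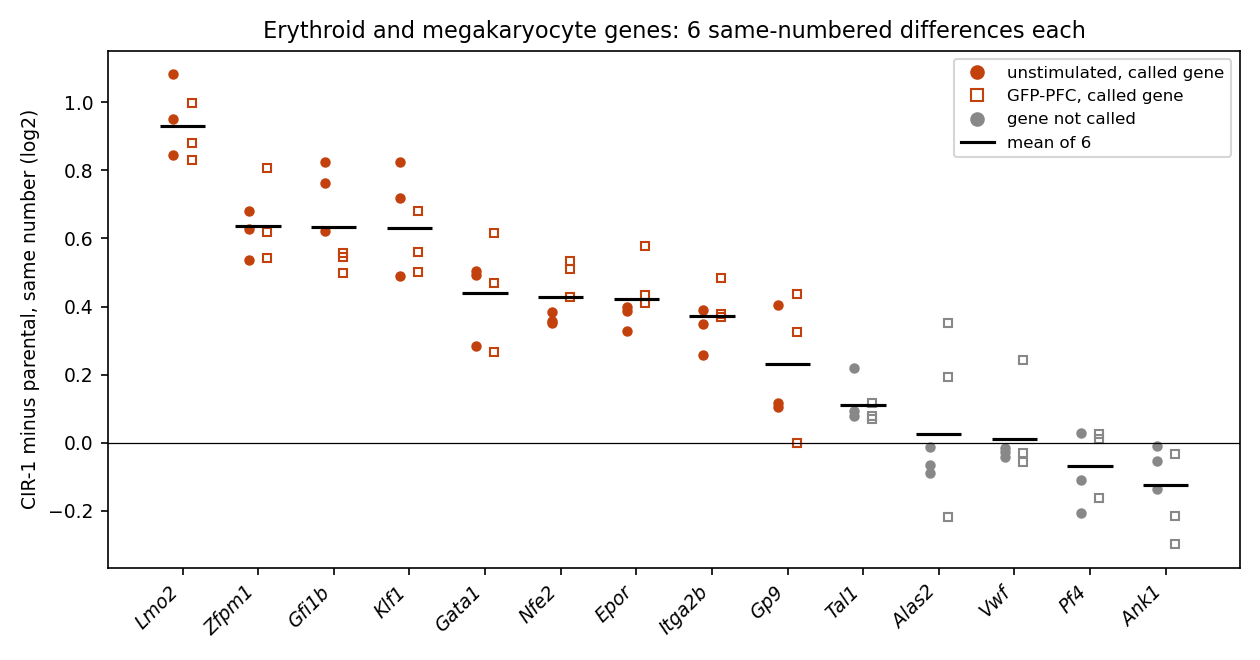
Same-numbered differences of CIR-1 minus parental (log2, vertical axis) for the 14 measured erythroid and megakaryocyte genes, with filled circles for the 3 unstimulated numbers, open squares for the 3 GFP-PFC numbers, orange for called genes and a bar at the mean of 6. All 6 points lie above 0 for Lmo2 through Itga2b, and the genes from Alas2 to Ank1 scatter about 0.

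GATA factors bind a short DNA word with GATA at its core, and the promoter windows of these genes were searched on both strands for its usual form, which is A or T, then GATA, then A or G, so that a match on the other strand of a window reads C or T, then TATC, then A or T. RefSeq promoter windows (GRCm38.p6), trimmed to the 250 bases before the start site, were found for 7 of the 9 genes that rose. Of these 7, 3 hold a match, namely Epor, Klf1 and Gfi1b, which are printed for that reason. Fcer1a, which fell and which GATA factors also regulate in mast cells, is set beside them. Windows run 5′ to 3′ on the strand of the gene, with matches in capitals. They are Epor on the minus strand (chr9:21963577-21963826), Klf1 on the plus strand (chr8:84901732-84901981), Gfi1b on the minus strand (chr2:28621983-28622232) and Fcer1a on the minus strand (chr1:173227230-173227479).
Epor: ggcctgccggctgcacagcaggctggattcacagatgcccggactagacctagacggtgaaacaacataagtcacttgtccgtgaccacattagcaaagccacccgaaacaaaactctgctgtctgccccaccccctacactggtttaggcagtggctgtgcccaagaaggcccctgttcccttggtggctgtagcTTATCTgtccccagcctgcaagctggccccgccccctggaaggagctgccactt
Klf1: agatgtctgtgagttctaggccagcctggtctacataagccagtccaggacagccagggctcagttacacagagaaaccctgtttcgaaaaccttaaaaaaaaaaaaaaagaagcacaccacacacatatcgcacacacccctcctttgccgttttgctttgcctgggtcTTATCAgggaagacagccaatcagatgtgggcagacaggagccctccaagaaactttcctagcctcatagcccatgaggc
Gfi1b: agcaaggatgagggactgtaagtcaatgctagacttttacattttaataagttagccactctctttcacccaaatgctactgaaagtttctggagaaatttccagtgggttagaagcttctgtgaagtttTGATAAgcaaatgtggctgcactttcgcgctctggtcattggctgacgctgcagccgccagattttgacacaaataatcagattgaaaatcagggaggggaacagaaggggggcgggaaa
Fcer1a: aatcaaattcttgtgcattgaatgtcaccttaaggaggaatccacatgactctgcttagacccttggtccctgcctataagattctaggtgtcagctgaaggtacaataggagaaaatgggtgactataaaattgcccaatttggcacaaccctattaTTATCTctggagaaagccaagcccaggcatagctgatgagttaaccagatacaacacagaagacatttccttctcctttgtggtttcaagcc
The Epor match begins 54 bases before the start site, the Klf1 match 80, the Gfi1b match 120 and the Fcer1a match 92. Among all windows of the genes tested, 22.4% hold a match, and the share was 17.5% for the genes called higher and 18.3% for those called lower. The word was thus present both in genes that rose and in a gene that fell.

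Mast cell and basophil genes had both rises and falls. Of 18 measured, 3 rose and 2 fell, against 5.95% and 4.34% of all genes, with a median difference of 0.01. Besides Fcer1a, Hdc, the enzyme that makes histamine, fell by 0.77 (SE 0.14) from 7.81 to 8.98 in parental arrays to 7.44 to 7.93 in CIR-1 arrays, and the ranges overlapped. Fcer1g, the gamma chain that the IgE receptor shares with other Fc receptors, rose by 0.33 (SE 0.04) but did not pass without the block (adjusted p = 0.0608, limma). The other rises were Prss34, a mast cell and basophil protease, by 0.40 and Gata2, a transcription factor of blood progenitors, by 0.23 (SE 0.04). Ms4a2, the beta chain of the IgE receptor, differed by 0.30 and did not pass (adjusted p = 0.206). Kit, the stem cell factor receptor, differed by 0.04 (SE 0.04, adjusted p = 0.636), and the mast cell protease genes Cpa3 and Cma1 had means below the background mark. The summed linear signal of 8 defining mast cell and basophil markers was 1120 to 2133 in parental and 906 to 1172 in CIR-1 arrays, and the ranges overlapped. Of these markers 2 fell, Fcer1a and Hdc, so the sum does not show a fall of the group.

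C-type lectin receptors sense sugars and cell debris on myeloid cells. Of 20 measured, 5 fell and 1 rose, against 4.34% and 5.95% of all genes, and their median difference was -0.05. After Clec12a, the falls were Clec4e (Mincle, an activating receptor for glycolipids), Clec5a, Clec4d and Clec2i. Clec4e read 9.51, 9.08 and 9.54 unstimulated and 9.68, 9.64 and 10.07 after GFP-PFC in parental cells, against 7.77, 7.30 and 7.58 and then 8.03, 7.83 and 8.07 in CIR-1. It fell by 1.83 (SE 0.14). Clec5a fell by 1.81 (SE 0.17), with 3 of its 6 CIR-1 values under the background mark. Clec4d fell by 0.57 and Clec2i by 0.56. Clec2d was the 1 that rose, by 0.18 with an adjusted p of 0.049, and it did not pass without the block. Clec7a, the receptor for fungal glucans, differed by 0.04.

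Genes of mature myeloid cells moved in both directions. Of 15 neutrophil granule genes, 3 rose and 2 fell, or 2 and 1 without the block. For this and the next lists, the shares over all genes were 5.95% higher and 4.34% lower. Mpo, myeloperoxidase, read 10.97, 10.16 and 10.12 in parental and 9.19, 8.56 and 8.86 in CIR-1 unstimulated, then 10.84, 10.36 and 10.15 against 8.97, 8.87 and 8.85. It fell by 1.55 (SE 0.10), while Lcn2 rose by 1.79 and Ctsg, cathepsin G, by 0.39 (SE 0.08). Elane, neutrophil elastase, differed by 0.11 and did not pass. Of 13 monocyte and macrophage genes, 4 fell and 1 rose. The falls were small, namely Itgam (-0.31), Cd68 (-0.26), Lyz2 (-0.25) and Spi1 (-0.23), the last a master transcription factor of myeloid cells. Fcgr1, the high-affinity IgG receptor, rose by 0.65 (SE 0.10). Without the block 2 of the 4 falls passed. Csf1r, the macrophage growth factor receptor, differed by 0.06 (SE 0.04, adjusted p = 0.459). The summed signal of 8 neutrophil markers was 1983 to 2855 in parental and 1315 to 1459 in CIR-1. Only 1 of the 8 was called lower, Mpo, already picked for its fall, so the sum does not show a fall of the group. Below the mark were 3 of them (Ngp, S100a8 and Ly6g), although Ly6g was 1 of the 3 called rises. The sum of 7 monocyte and macrophage markers was 1515 to 1657 in parental and 1401 to 1598 in CIR-1, and these ranges overlapped. Gzmb, granzyme B, fell by 1.29 (SE 0.17) from 12.99 to 13.57 in parental to 11.89 to 12.14 in CIR-1, the 1 fall among 13 T and NK cell genes.

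Some further changes of at least 0.75 were picked after their values were seen and add to the picture of immune genes. Ptpn22, a phosphatase that dampens antigen receptor signals, fell by 1.54 (SE 0.07) with parental arrays between 8.98 and 9.52 and CIR-1 arrays between 7.41 and 8.06. Ccl9, a chemokine, fell by 1.31, Epx, eosinophil peroxidase, by 1.21, Fcgr2b, the inhibitory IgG receptor, by 0.82 and Il4, the cytokine interleukin-4, by 0.76. Il4 was most spread in parental arrays (7.35 to 9.06), with the top values in arrays 5 and 6. Myct1, a Myc target gene, rose by 1.27 and Cxcr2, the interleukin-8 receptor of neutrophils, by 1.18.

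Pro-B identity genes moved little. Of 20 measured, 2 rose, Cd79b, the beta chain of the B cell receptor's signal unit (0.26, SE 0.04), and Ikzf1, a lymphoid transcription factor (0.17, SE 0.04), and 0 fell. Ikzf1 did not pass without the block. The shares over all genes were 5.95% higher and 4.34% lower. Pax5 read 7.09 to 7.41 in parental and 7.16 to 7.41 in CIR-1, with a difference of 0.03 (SE 0.06, adjusted p = 0.871). The largest size among the 18 that did not pass was 0.12.

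The receptor chain that the line depends on was also measured. The mouse Il6st probe set, which reads the gene of gp130, lay at 6.20 to 6.45 in parental and 6.27 to 6.39 in CIR-1, next to the background mark, with a difference of -0.04 (SE 0.04, adjusted p = 0.67). The labels do not say which species' gp130 was introduced, so this probe set may not read it. Of 21 cytokine receptors, JAKs and STATs, 2 rose (9.52%), Stat3 by 0.22 (SE 0.04) and Jak2 by 0.16 (SE 0.04), and 0 fell. Here and for the next list, 5.95% of all genes were higher and 4.34% lower. Jak2 did not pass without the block (adjusted p = 0.509, limma). Il2ra differed by -0.60, the largest size among the others, and did not pass. Of 18 early targets of gp130 and STAT3, 3 rose and 1 fell. Gadd45g, a stress-response gene, rose by 0.73 (SE 0.08), Pim2, a survival kinase, by 0.42 (SE 0.07) and Cebpb by 0.19 (SE 0.05), while Bcl6, a transcriptional repressor, fell by 0.62 (SE 0.10). Of the 3 rises, that of Gadd45g alone passed without the block, where Pim2 had an adjusted p of 0.564 and Cebpb of 0.113 (limma). Socs3, the feedback inhibitor of gp130, differed by 0.06 and did not pass.

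Early genes of the ERK pathway were lower in CIR-1 in 3 cases and higher in 2 of 20 measured. These are 15% and 10%, against 4.34% and 5.95% of all genes. Ier3 fell by 0.87 (SE 0.18), Plk3 by 0.70 (SE 0.16) and Myc by 0.46 (SE 0.10), and Dusp4, a phosphatase that turns off ERK, rose by 0.46 (SE 0.13) and Spred1 by 0.12. Myc read 12.31, 12.37 and 12.69 in unstimulated parental against 12.10, 12.22 and 11.91 in CIR-1, and 13.03, 13.20 and 13.13 against 12.48, 12.91 and 12.37 after GFP-PFC. Both lines read higher with GFP-PFC, and CIR-1 lay below parental in each condition. Without the block 1 of these falls and 0 of the rises passed.

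Of 14 BCL2 family genes, 1 rose and 1 fell, against 5.95% and 4.34% of all genes. Bcl2l1, which codes for the survival protein BCL-XL, rose by 0.57 (SE 0.05) from 9.51 to 9.89 in parental to 9.98 to 10.41 in CIR-1, and Bcl2l2 fell by 0.17 but did not pass without the block (adjusted p = 0.385, limma). Of 23 integrins and adhesion genes, 2 rose and 3 fell, the latter 2 without the block. Icam2, an adhesion ligand of leukocytes, rose by 0.70 (SE 0.05) and Itga6, a laminin receptor chain, by 0.44 (SE 0.05), while Cd81 fell by 0.27 (SE 0.04).

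Because the construct is named as an uptake receptor, genes of endocytosis and lysosomes were read as lists. The counts are to be read against 5.95% higher and 4.34% lower over all genes. Of 22 clathrin endocytosis genes, 4 rose and 0 fell, with a median of 0.03. Dnm1, the membrane-cutting GTPase dynamin 1, rose from 7.69 to 7.96 in parental to 8.28 to 8.43 in CIR-1, a difference of 0.51 (SE 0.05) with no overlap. Rab11a, a GTPase of recycling endosomes, rose by 0.30 (SE 0.04), and Cltb and Eps15 by 0.17 and 0.16. Cltc, the clathrin heavy chain, differed by -0.02 and did not pass. Without the block 2 of the 4 passed. Of 21 scavenger and cargo receptors, 0 rose and 2 fell, Olr1, a receptor for oxidised lipoprotein (-0.64, SE 0.09), and Scarb2 (-0.14, SE 0.03), of which Scarb2 did not pass without the block. Of 23 lysosome genes, 2 rose and 3 fell, or 1 and 2 without the block. Ctss, cathepsin S, fell by 0.99 (SE 0.06) from 8.28 to 8.61 in parental to 7.29 to 7.69 in CIR-1. Scpep1 fell by 0.28, Glb1 rose by 0.23 and Neu1 by 0.21.

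**Figure D4:**
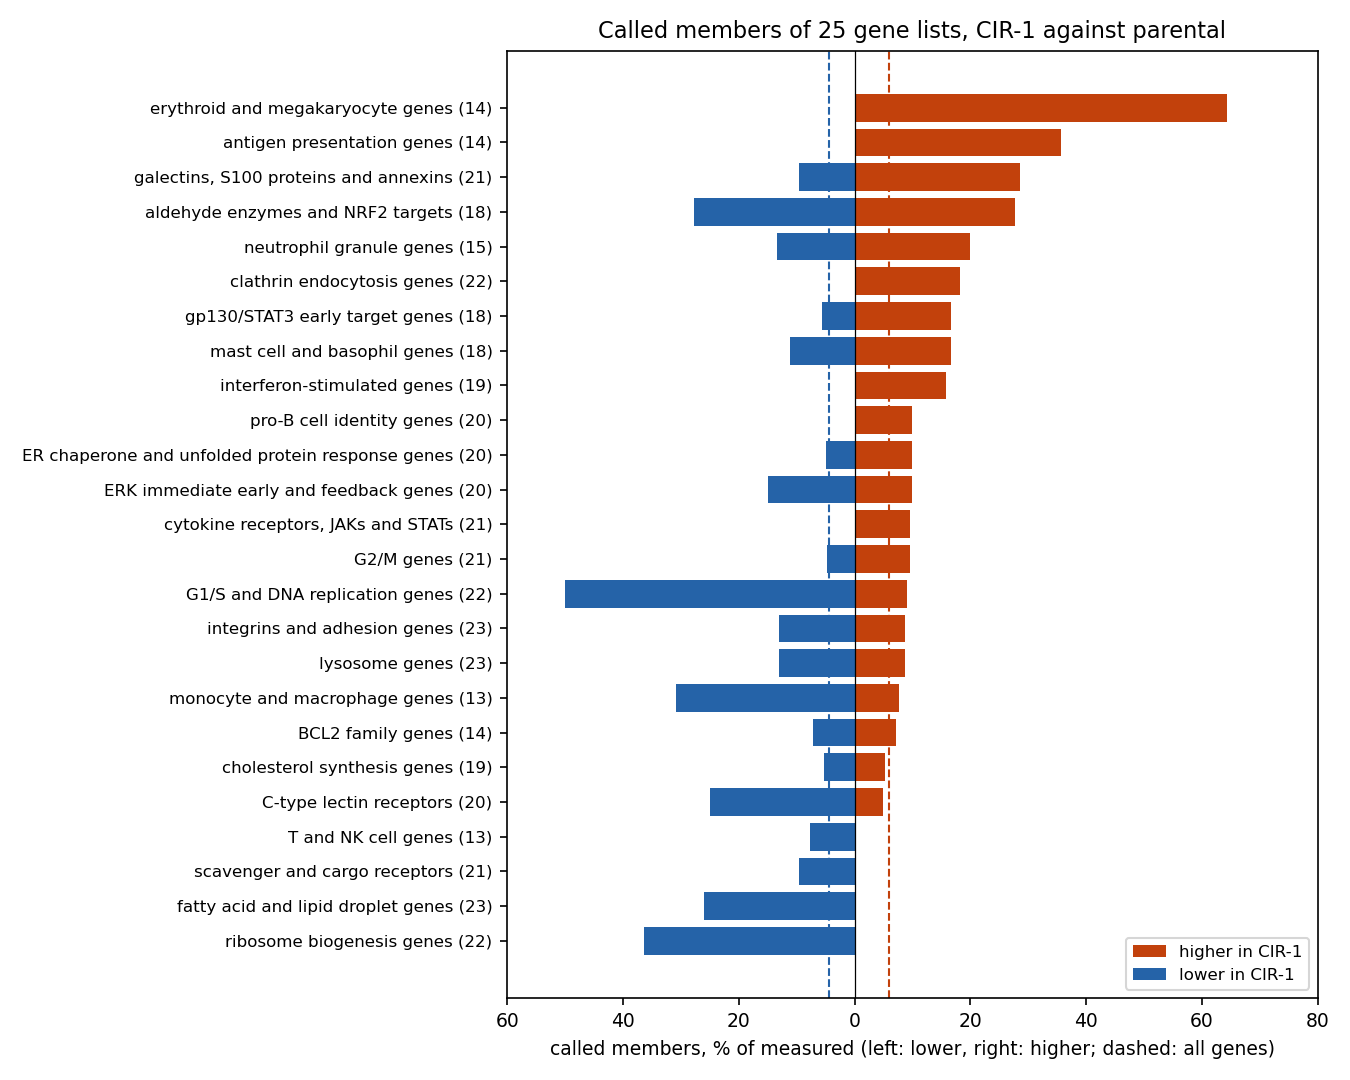
Share of measured members called higher (orange, to the right) and lower (blue, to the left) in CIR-1 for 25 gene lists, in percent, with the number measured in brackets and dashed lines at the shares over all genes (5.95% and 4.34%). Erythroid and megakaryocyte genes reach 64.3% higher and 0% lower, and G1/S and DNA replication genes 9.09% higher and 50% lower.

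Galectins, S100 proteins and annexins, which bind sugars, calcium or membranes, had 6 rises and 2 falls among 21 measured, or 5 and 1 without the block. Here and for the next list, 5.95% of all genes were higher and 4.34% lower. After Lgals3, the rises were Anxa3 (0.48), Anxa2 (0.41, SE 0.05), S100a4 (0.39), Anxa7 (0.24) and Lgals8 (0.22). Anxa1, an annexin of myeloid cells with anti-inflammatory action, fell by 1.43 (SE 0.09), from 8.66 to 9.42 in parental to 7.42 to 8.06 in CIR-1. Aldehyde enzymes and NRF2 targets, which detoxify reactive compounds, had 5 rises and 5 falls among 18, or 5 and 2 without the block. Besides Aldh1a1, its close relative Aldh1a7, below the background mark on 5 of 6 parental arrays, was at least 1.40-fold higher in CIR-1, and Nqo1, a quinone reductase, rose by 0.59 (SE 0.09), while Gstm1, a glutathione transferase, fell by 1.19 (SE 0.14) and Hmox1, heme oxygenase 1, by 0.53. Aldh1a1 and Aldh1a7 are closely similar copies, and probes of one may read RNA of the other.

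Growth and lipid genes shifted by small amounts. The counts below stand against 4.34% lower and 5.95% higher over all genes. Of 22 G1/S and DNA replication genes, 11 fell (50%) and 2 rose (9.09%), with a median of -0.13. The falls included Rrm2, a subunit of the enzyme that makes deoxynucleotides (-0.25, SE 0.04), Cdt1, which licenses replication origins (-0.22, SE 0.04), Ccne1, cyclin E1 (-0.22, SE 0.04), and the MCM helicase genes Mcm3, Mcm5, Mcm6 and Mcm7 (-0.10 to -0.16). The D-type cyclins Ccnd3 and Ccnd2 rose, by 0.41 (SE 0.05) and 0.18. Of 22 ribosome biogenesis genes, 8 fell and 0 rose, with a median of -0.12, and 0 of the 22 had a difference above 0. Polr1b, a subunit of RNA polymerase I, fell by 0.26 (SE 0.04), Nolc1 by 0.14, Nop56 by 0.14 and Gnl3 by 0.13. These counts moved with the fit. Without the block 1 replication gene and 1 ribosome biogenesis gene fell, and without the arrays numbered 1 and 2 the counts were 3 and 1. Of 21 G2/M genes, 2 rose and 1 fell, with a median of 0.04, and without the block 0 rose and 0 fell.

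For each list in this paragraph, the shares over all genes were 4.34% lower and 5.95% higher. Of 23 fatty acid and lipid droplet genes, 6 fell and 0 rose. After Far2 they were Fasn, fatty acid synthase (-0.32, SE 0.07), Fabp5, a fatty acid carrier (-0.24, SE 0.04), Acsl4 (-0.14), Elovl5 (-0.12) and Elovl1 (-0.11), and 3 of the 6 passed without the block. Of 19 cholesterol synthesis genes, 1 rose and 1 fell, and neither passed without the block. Antigen presentation genes had 5 rises and 0 falls among 14, all small, with Tap1, a subunit of the peptide transporter, at 0.30 (SE 0.04), Psmb9, an immunoproteasome subunit, at 0.23 (SE 0.04), H2-DMa at 0.20 and Tapbp and Tap2 at 0.15 each. Without the block 2 of the 5 passed. Of 19 interferon-stimulated genes, 3 rose, Oas2 by 0.44 (SE 0.06), Oas1a by 0.25 (SE 0.05) and Irf9 by 0.15 (SE 0.04), and 0 fell. Irf9 did not pass without the block. Of 20 chaperone and unfolded protein response genes, 2 rose, Trib3 by 0.29 and Sel1l by 0.14, and Pdia4 fell by 0.14. All 3 calls ended without the block and on the 12 compared arrays alone.

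The CIR-1 line was then set against the other construct lines. The differences of CIR-1, CIR-2 and CIR-3 from parental share the 6 parental arrays, so any trait of these parental arrays enters all 3, and they are given side by side only. Fcer1a had a mean below the background mark in all 3 construct lines (5.07, 5.07 and 4.94), so its falls are bounds and likeness between the lines cannot be read from them. In the order CIR-1, CIR-2 and CIR-3, F10 differed by 1.35, 1.33 and 1.32, Lcn2 by 1.79, 1.77 and 1.48, Clec4e by -1.83, -1.59 and -1.77, and Mettl7b by -1.76, -1.58 and -1.57. For these 4 of the 28 genes, and for Fcer1a, CIR-1 was called against neither CIR-2 nor CIR-3, which does not show that the lines were alike.

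**Figure D5:**
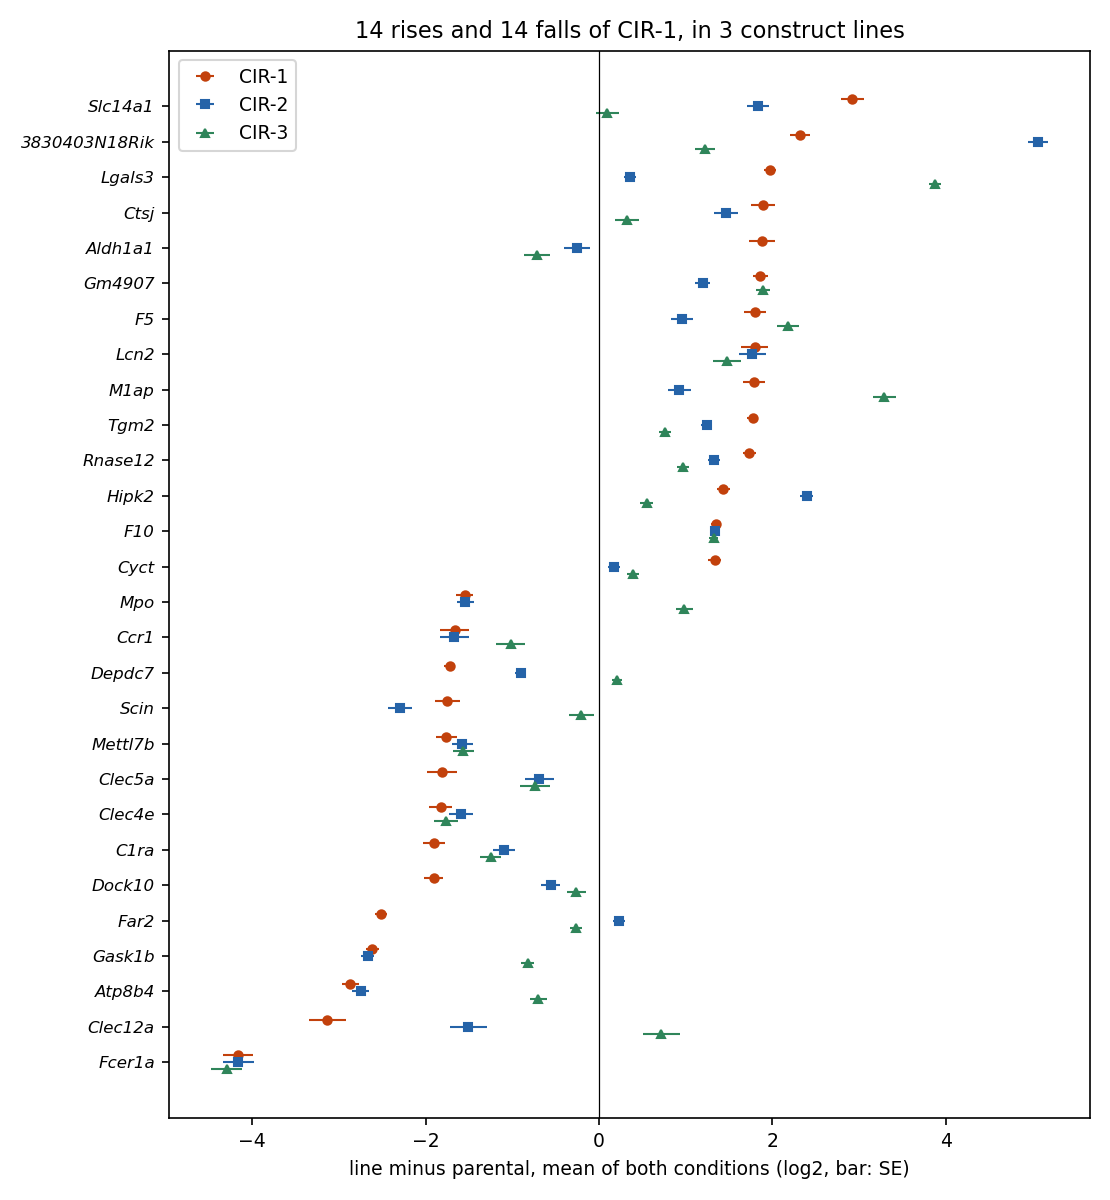
Difference from parental (log2, horizontal axis, bars are standard errors of the limma fit) of the 14 greatest rises and 14 greatest falls of CIR-1, shown for CIR-1 (circles), CIR-2 (squares) and CIR-3 (triangles), which share the parental arrays. The 3 lines lie together for F10, CIR-1 lies apart for Aldh1a1 and Far2, and the Fcer1a points rest on means below the background mark in all 3 lines.

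The direct difference of CIR-1 from the mean of CIR-2 and CIR-3 holds no parental array. Its p-values rest on a spread estimated over all 24 arrays, the parental ones included. In this comparison 949 genes passed (380 higher and 569 lower, 4.76% of genes). With arrays centred on their medians the split was 231 higher and 612 lower. Without the block 358 genes passed. CIR-1 differed from CIR-2 in 676 genes (3.39%) and from CIR-3 in 1414 genes (7.1%). In 90 genes (0.452%) CIR-1 was above each of parental, CIR-2 and CIR-3, and in 88 (0.442%) it was below each. Of the 28 greatest rises and falls, 5 were above each and 6 below each. The 5 were Slc14a1, Aldh1a1, Tgm2, Rnase12 and Cyct, and the 6 were Clec12a, Far2, Dock10, C1ra, Clec5a and Depdc7. Since the rule picked these genes from the comparison with parental, the values against CIR-2 and CIR-3 are the part it did not use, although they rest on the same CIR-1 arrays.

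Aldh1a1 exceeded CIR-2 by 2.13 (adjusted p = 1.1e-07) and CIR-3 by 2.59, and those lines differed from parental by -0.26 and -0.71. Far2 lay below CIR-2 by -2.75 and below CIR-3 by -2.24, and these lines differed from parental by 0.24 and -0.27. Slc14a1 was above CIR-2 by 1.09 and above CIR-3 by 2.83, where CIR-2 itself differed from parental by 1.84 and CIR-3 by 0.10. Clec12a was below CIR-2 by -1.63 and below CIR-3 by -3.85, with CIR-3 at 0.72 from parental and the CIR-1 mean under the background mark. Ptpn22 lay below CIR-2 by -2.21 and below CIR-3 by -1.69.

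For other genes CIR-1 and CIR-2 lay close and CIR-3 stood apart. Mpo differed from parental by -1.55 for CIR-1, by -1.54 for CIR-2 and by 0.98 for CIR-3, Gask1b by -2.62, -2.67 and -0.82 and Atp8b4 by -2.87, -2.74 and -0.70. CIR-1 differed from CIR-2 by -0.01 for Mpo (adjusted p = 0.99), by 0.05 for Gask1b (0.88) and by -0.12 for Atp8b4 (0.71), each with a standard error of 0.10 or less. For Lgals3 CIR-1 lay between the others, with a difference of 1.61 from CIR-2 and -1.90 from CIR-3. Of the erythroid genes, Lmo2 was above CIR-2 by 0.46 and above CIR-3 by 0.77, and Gata1 by 0.19 and 0.31. Gfi1b differed from CIR-2 by 0.07 (adjusted p = 0.57) and from CIR-3 by 0.11 (0.17), neither past the threshold. Of the 14 measured genes of that list, 6 were higher in CIR-1 than in the mean of CIR-2 and CIR-3, and 0 lower, against 1.91% and 2.86% of all genes. Rises of this list were not particular to CIR-1. In CIR-2 and CIR-3, Epor differed from the shared parental arrays by 0.46 and 0.30, Klf1 by 0.43 and 0.26 and Itga2b by 0.22 and 0.17, and all of these passed. Gata1 differed by 0.25 and 0.13, of which the CIR-3 value did not pass. Alas2 differed by -0.00053 and -0.02, and neither passed.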

How the data were processed

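RNA of 27 samples was measured on Affymetrix mouse arrays, and 12 gene-level arrays (6 CIR-1, 6 parental) form the main comparison. The CIR-2 and CIR-3 arrays are in the same fit. Per the labels' protocols, 150 ng of total RNA with an RNA integrity number over 8 was amplified and biotin-labelled. The authors made the deposited values with Affymetrix Expression Console, at the level of core genes and of core exons, per the labels and the submitters' processing notes, and the deposited values were read here as log2 from their range (2.97 to 14.9 over the arrays used). The version, algorithm, normalization and log base are not given in the sources used here, so folds rest on that reading, and the deposited normalization was kept. Scan or hybridisation batches are not given either. The number of arrays limits the precision.

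Of 35556 probe sets, 21789 have 1 gene symbol, 1621 several and 12146 none in the platform annotation. Genes with several probe sets (1015) were read from the brightest, which gave 19920 genes. Entrez numbers of 21698 probe sets were found in RefSeq, and 23 symbols were updated. The 3 columns of the Hyper-IL-6 arrays entered 1 alternative only. Differences were fitted in R 4.3.3 with limma 3.58.1 on 24 arrays (4 lines, 2 conditions, 3 arrays each), with 8 group means and the array number (1 to 6) as a block, which left 12 residual degrees of freedom. Two-sided p-values were adjusted over all genes (Benjamini-Hochberg), with a threshold of 0.05. The scripts were tested on simulated data. Array numbers come from the titles. Deviations from group means of same-numbered parental and CIR-1 arrays correlated with r of 0.224 to 0.763, and all 36 same-numbered pairs of lines exceeded 0.1, so the numbers were taken as pairing arrays.

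Named are, among called genes with 3 against 3 arrays apart in each condition and the brighter line's mean above 6.28, the 14 greatest rises and 14 greatest falls, up to 4 passing members with the smallest p of each of 25 gene lists, the genes Il6st, Fcer1a, Kit, Gata1, Pax5 and Csf1r, and the 4 smallest interaction p. Other list members are given to complete a list, and genes outside the lists are said to be picked after their values were seen. Members and lists were chosen with earlier results of these data known. Alternatives covered the block, the arrays entered, normalization, dim genes, probe sets, exon-level values, array weights and left-out arrays, and list counts under other fits were added after seeing the data. Promoter windows are from RefSeq (GRCm38.p6). Gene coordinates are not given, since the tables name no build.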

Additional observations from a re-analysis of the deposited data

Results flagged for a closer look

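In 4 named genes, 1 of the 6 same-numbered differences of CIR-1 minus parental stood apart from the other 5 by Dixon's test. About 1 in 20 groups does so by chance, and 110 genes were read. Oas1a, an antiviral gene that rose, had its highest difference, 0.51, in the unstimulated arrays numbered 5, and the other 5 lay between 0.15 and 0.29. Cdc25c, a phosphatase of mitotic entry, had its lowest, 0.072, in the GFP-PFC arrays numbered 4, against 0.16 to 0.19 in the others. Ebp, an enzyme of cholesterol synthesis, had its highest, -0.042, in the arrays numbered 6, where the others lay between -0.18 and -0.14. Kit, which did not pass, had its highest, 0.24, in the arrays numbered 1, against -0.031 to 0.058.

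CIR-1 differed from the mean of CIR-2 and CIR-3 in 949 genes (limma, adjusted p under 0.05). The difference holds no parental array, but parental arrays enter the estimate of the spread. Among the 28 greatest rises and falls against parental, 10 genes differed by over 1 in the direction of their change. Slc14a1 was higher by 1.96 (SE 0.11), Aldh1a1 by 2.36 (SE 0.13) and Cyct by 1.05 (SE 0.06), the last against means below the background mark in CIR-2 and CIR-3. The lower genes were Clec12a (-2.74, SE 0.18, with a CIR-1 mean below that mark), Far2 (-2.50, SE 0.06), Dock10 (-1.50, SE 0.10), Depdc7 (-1.38, SE 0.05), Mpo (-1.27, SE 0.09), Atp8b4 (-1.14, SE 0.09) and Clec5a (-1.10, SE 0.15). For Mpo and Atp8b4 this rests on CIR-3, since CIR-1 and CIR-2 differed by -0.01 and -0.12 (adjusted p = 0.99 and 0.71).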

How the results depend on the processing

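The mean line difference kept a count within 1.5 times of 2049 under all but 1 alternative, from 1479 genes without the arrays numbered 1 and 2 to 2496 with a trended, robust prior. The exception was the fit with no replicate block, at 916, all of them among the 2049. With no replicate block the other counts were 318 unstimulated, 289 after GFP-PFC and 358 against the mean of CIR-2 and CIR-3. On the 12 compared arrays alone, 1520 genes passed for the mean, and 549 and 468 in the 2 conditions. Without the arrays numbered 1 and 2, 515, 486 and 576 passed (unstimulated, GFP-PFC, and against the other construct lines). Leaving out 1 array at a time gave 1602 to 2052 for the mean, 524 to 902 unstimulated, 491 to 927 after GFP-PFC and 605 to 1066 against the other construct lines. The interaction held 0 genes under every alternative. With arrays centred on their medians, genes higher than CIR-2 and CIR-3 were 27.4% of calls, against 40.0%. Of the 110 named genes 103 passed, 64 passed under every alternative, 39 were lost under 1 or more and 0 reversed, and Pdia4, Ebp, Ly6g and Mvd were lost most often. The exon-level table called 1816 genes, 1536 of them shared with the 2049. Changes of genes with a line's mean below the background mark are known only as bounds.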

Other observations

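Further genes that differed by 0.75 or more were read after their values were seen. Several lay at like distances from parental in all 3 construct lines, which share the parental arrays, in the order CIR-1, CIR-2 and CIR-3. Tpst1, which sulfates tyrosines of secreted and membrane proteins, differed by 1.26, 1.23 and 1.35. Dap3, a mitochondrial ribosomal protein gene, differed by 0.81, 0.88 and 0.78, and Tbc1d2b by 0.81, 0.80 and 0.77. Ap1m2, a subunit of the AP-1 sorting complex of epithelial cells, differed by 1.06, 1.00 and 1.20, and Cst7, a protease inhibitor of immune cells, by -0.78, -0.78 and -0.85.

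Other genes lay on opposite sides of parental. Myct1 differed by 1.27, 0.31 and -1.31 in the 3 lines. Igsf6, an immunoglobulin superfamily gene of myeloid cells, differed by -1.08, 1.69 and 0.08, and Aoc1, a diamine oxidase that breaks down histamine, by -0.83, -0.48 and 1.39.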
